A study of Sus scrofa with 6 samples.

Results

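Cyclin-dependent kinase inhibitors and checkpoint kinases slow or stop the cell cycle. The set described here holds 9 genes chosen by name: CDKN1A, CDKN1B, CDKN2C, CDKN2D, CDKN3, CHEK1, CHEK2, WEE1 and, as a p53 regulator, MDM2. All 9 were found among the 31908 Ensembl pig gene IDs of the deposited table, each under 1 ID. RNA was taken from IPEC-J2, a non-transformed epithelial cell line from the jejunum of newborn piglets. The CON group (3 libraries) received PBS and the CDCA group (3 libraries) received 50 μM chenodeoxycholic acid, a primary bile acid, each for 24 h. The study's text calls the libraries of a group biological replicates, while neither it nor the labels say whether they came from separate cultures, so the p-values measure the spread between these libraries, which may be technical. One dose and one time point were sequenced.

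Cells pass from G1 into S phase and from G2 into mitosis when cyclin-dependent kinases (CDKs) are active. Inhibitors of the CIP/KIP family, such as CDKN1A and CDKN1B, bind whole cyclin-CDK complexes, whereas inhibitors of the INK4 family, such as CDKN2C and CDKN2D, bind CDK4 and CDK6 alone. The kinases CHEK1 and CHEK2 relay signals from stalled replication forks and broken DNA to the CDC25 phosphatases and to p53, and WEE1 holds CDK1 inactive by phosphorylating it. MDM2 is the ubiquitin ligase that removes p53 and is itself a p53 target gene.

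Values are transcripts per 1000000 (TPM), a share of a library's RNA corrected for length, and were summed over the listed transcripts of a gene. All listed transcripts together came to between 351770 and 366073 TPM in a library, of the 1000000 of a full library. The study's text gives the raw reads of all libraries together and the range of clean reads over them. The table used here holds no read counts per gene, so no counting error could be set on a single value. A gene's value covers its listed transcripts and can miss others: PCNA, the sliding clamp that every replicating cell uses, was listed at only 0.28 to 0.53 TPM. On the first principal component (61.5% of the variance) the groups separated, and on the second (11.4%) CON replicate 3 and CDCA replicate 2 lay apart from the other 4 libraries. Of 7 markers of intestinal epithelium, EPCAM, KRT8, KRT18 and CLDN4 passed 1 TPM, whereas CDH1, VIL1 and CDX2 did not, and CDX2 was at 0 in 5 libraries. Summed, the 7 stood at 624 to 648 TPM in CON and at 1182 to 1322 TPM in CDCA, of which CLDN4, a tight junction protein, made up 765 to 863 TPM in CDCA. The 4 fibroblast markers summed to 1.26 to 1.77 TPM in CON and 0.89 to 1.09 TPM in CDCA, and the 3 endothelial markers to 2.20 to 2.69 and 1.87 to 2.33 TPM. The 4 leukocyte markers summed to 0.42 to 1.37 TPM in CON and 4.94 to 6.11 TPM in CDCA. Most of the CDCA sum was CD68, also a lysosomal protein (4.44 to 5.33 TPM), while PTPRC, which defines leukocytes, lay near 0, and the part of these marker levels in the results below was not tested.

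The groups were compared by limma on log2(TPM + 1), in the 8708 genes whose values averaged 1 TPM or more, with adjustment over all of them. Adding 1 shrinks the fold changes of genes with low TPM below their plain ratios. A gene was called where its FDR was under 0.05 and its log2 fold change over 1 in size. Of the 9 genes, 7 passed the filter on low values, and CDKN1A and CDKN1B did not. Only CDKN2C was called, where 7.42% of all tested genes were, and it was lower in CDCA, as were 3.90% of all tested genes; none of the 9 was called higher, against 3.51% of all tested genes. With the FDR alone, 5 of the 7 were lower (CDKN2C, CDKN2D, CDKN3, CHEK2 and MDM2), 1 was higher (WEE1) and CHEK1 did not pass. By this rule 53.2% of all tested genes passed, 23.9% lower and 29.3% higher. The median log2 fold change of the 7 genes was -0.55, compared with 0.05 over all tested genes. RNA was measured in bulk, so fewer cells in a phase of the cycle and less RNA per cell cannot be told apart.

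**Figure D1:**
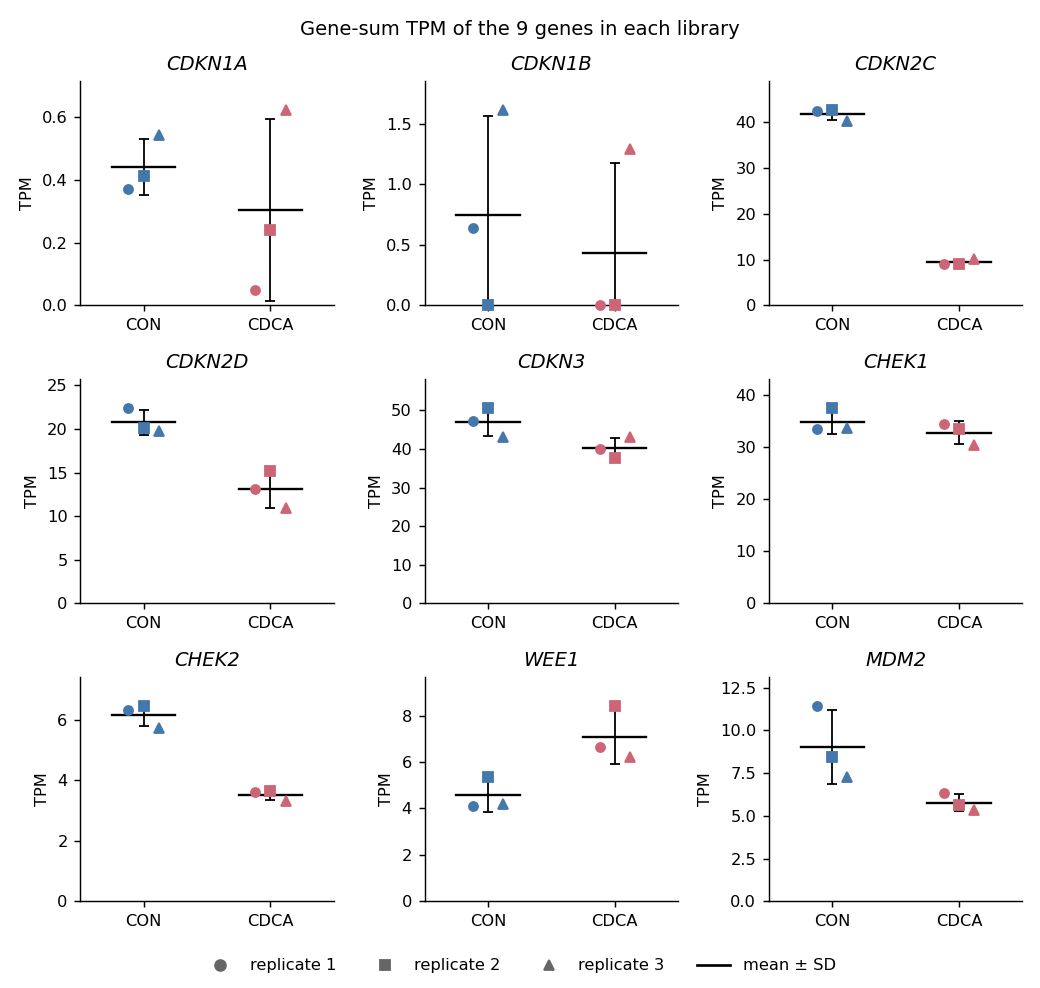
Gene-sum TPM (linear axes from 0) of the 9 genes in the 3 CON and 3 CDCA libraries, 1 panel per gene; points are libraries, black bars the mean and SD (bars reaching below 0 are cut at the axis). CDKN2C drops from about 40.3 to 42.5 TPM to 9.08 to 10.1 TPM, WEE1 lies higher in every CDCA library, and CHEK1, CDKN1A and CDKN1B overlap between the groups.

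CDKN1A and CDKN1B, the CIP/KIP inhibitors p21 and p27, were barely listed in either group. CDKN1A (ENSSSCG00000001565) lay at 0.37, 0.41 and 0.54 TPM in the CON replicates 1 to 3 and at 0.05, 0.24 and 0.62 TPM in the CDCA replicates 1 to 3. The CDCA libraries thus held both the lowest and the highest of the 6 values, and the groups overlapped (exact permutation test, two-sided, p = 0.5). CDKN1B (ENSSSCG00000037144) was listed at 0.64, 0 and 1.61 TPM in the CON libraries, compared with 0, 0 and 1.29 TPM in CDCA. Its highest value in each group came from replicate 3, 3 of the 6 libraries were at 0, and the groups overlapped (exact permutation test, two-sided, p = 0.7). With no filter on low values the limma FDR was 0.57 for CDKN1A and 0.72 for CDKN1B. Each gene has 1 listed transcript, so at these levels a change of either inhibitor was not detectable in this table.

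Both INK4 inhibitors fell, and of the listed RNA of the 4 CIP/KIP and INK4 genes of the set they made up nearly all. CDKN2C (ENSSSCG00000003876), p18, was listed at 42.34, 42.54 and 40.27 TPM in the CON libraries, compared with 9.11, 9.08 and 10.09 TPM in CDCA. The replicates lay close together and the groups far apart: the CON mean of 41.7 ± 1.3 TPM (SD, n = 3) fell in CDCA to 9.43 ± 0.57 TPM (SD, n = 3), or 0.226 times the CON mean. On the log2 scale the gene fell by 2.04 (SE 0.06, limma FDR 2.8e-06), and 83 of the 8708 tested genes changed by more in size. CDKN2D (ENSSSCG00000013643), p19, stood at 22.38, 20.06 and 19.83 TPM in the CON libraries, compared with 13.12, 15.18 and 10.98 TPM in CDCA. No CDCA value reached the lowest CON value, and the ratio of the means was 0.631. CDKN2D thus fell by 0.64 on the log2 scale (SE 0.11, limma FDR 0.0036), too little for a call. Summed, CDKN1A, CDKN1B, CDKN2C and CDKN2D held 65.7, 63.0 and 62.3 TPM in CON and 22.3, 24.5 and 23.0 TPM in CDCA. Of these sums, CDKN2C and CDKN2D held 64.7, 62.6 and 60.1 TPM in CON and 22.2, 24.3 and 21.1 TPM in CDCA.

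CDKN3 (ENSSSCG00000005047), a phosphatase that removes the activating phosphate of CDK2, was the most abundant of the 9 genes in both groups. It was listed at 47.31, 50.56 and 43.12 TPM in the CON libraries, compared with 40.06, 37.6 and 43.0 TPM in CDCA. The highest CDCA library lay only just below the lowest CON library, both being replicate 3. The log2 fold change of -0.22 (SE 0.07, 95% interval -0.40 to -0.04) had a limma FDR of 0.045. That FDR rose over 0.05 without CON replicate 1 (0.0997) or 2 (0.13) and without CDCA replicate 1 (0.10) or 2 (0.13), and it was 0.099 with no filter on low values.

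Of the checkpoint kinases, CHEK2 fell and CHEK1 did not pass the test. CHEK1 (ENSSSCG00000015215), the kinase activated by ATR, was listed at 33.41, 37.39 and 33.6 TPM in the CON libraries, compared with 34.4, 33.47 and 30.26 TPM in CDCA. The groups overlapped, and the log2 fold change was -0.09 with a 95% interval from -0.25 to 0.08 (limma FDR 0.33). With totals computed without the mtDNA-encoded mRNAs, which lowers the median of all tested genes by 0.13, it was -0.24 (limma FDR 0.025). CHEK2 (ENSSSCG00000034864), the kinase activated by ATM, was listed at 6.33, 6.45 and 5.74 TPM in the CON libraries, compared with 3.61, 3.64 and 3.32 TPM in CDCA. All 3 CDCA libraries lay well below the CON libraries: the mean fell from 6.17 ± 0.38 to 3.52 ± 0.18 TPM (SD, n = 3), and the log2 fold change was -0.66 (SE 0.08, limma FDR 0.00056).

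WEE1 (ENSSSCG00000013411), the kinase that keeps CDK1 inactive until mitosis, was the one gene of the set that was higher in CDCA. It stood at 4.11, 5.37 and 4.2 TPM in the CON libraries, compared with 6.63, 8.4 and 6.23 TPM in CDCA. The groups did not overlap, and replicate 2 was the highest in each. The mean rose by a ratio of 1.55, or by 0.54 on the log2 scale (SE 0.13, 95% interval 0.22 to 0.86, limma FDR 0.014). Without CON replicate 3 and CDCA replicate 2, the libraries that lay apart on the second component, the log2 fold change was 0.38 (limma FDR 0.088). WEE1 had 1 listed transcript.

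MDM2 (ENSSSCG00000000488) was listed at 11.41, 8.42 and 7.25 TPM in the CON libraries, compared with 6.34, 5.64 and 5.35 TPM in CDCA. The CON libraries were spread widely, with replicate 1 the highest, yet each lay above every CDCA library. The log2 fold change was -0.55 (SE 0.15, 95% interval -0.91 to -0.18, limma FDR 0.023). The FDR was 0.061 without CDCA replicate 2, 0.068 without CDCA replicate 3 and 0.058 with no filter on low values. Of the 7 tested genes, the groups did not overlap for 6, with CDCA below for 5 and above for 1. Among all tested genes they did not overlap for 61.5%, with CDCA below for 27.8% and above for 33.7%. CDKN1A and CDKN1B, which were not tested, overlapped.

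**Figure D2:**
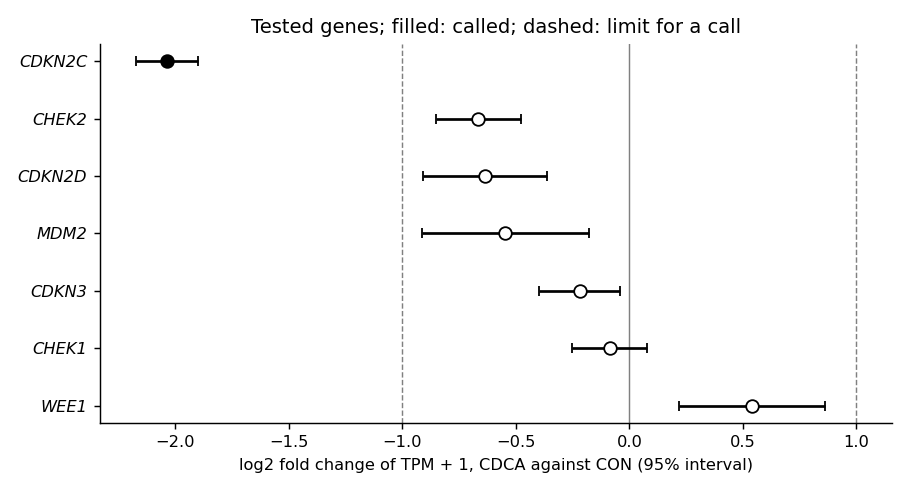
Log2 fold change of TPM + 1 (CDCA against CON) of the 7 tested genes with 95% intervals from limma; the filled point is the called gene and dashed lines mark 1 in size. CDKN2C stands at -2.04, the interval of CHEK1 spans 0, and WEE1 lies above 0.

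The sums were also taken apart by listed transcript. The 9 genes had 26 listed transcripts, 5 genes with 1 each, and 4 of the 26 were at 0 in all libraries. Each listed transcript with a mean of at least 1 TPM was also fitted by itself with the same limma steps over 12205 transcripts, a test added after the values were seen. RSEM divides reads that fit several transcripts of a gene among them, so single transcript values are less certain than sums. The table gives no transcript IDs, and transcripts are named here by their rank in mean TPM.

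For CHEK1, the most abundant transcript did not pass the test, whereas the second fell. The transcript of rank 1 was listed at 27.51, 30.04 and 27.82 TPM in the CON libraries, compared with 32.13, 31.28 and 29.02 TPM in the CDCA libraries. This was a log2 fold change of 0.11 with a limma FDR of 0.19, and every CDCA value but one lay above the highest CON value. The transcript of rank 2 was listed at 5.9, 7.35 and 5.78 TPM in the CON libraries, compared with 2.27, 2.19 and 1.24 TPM in the CDCA libraries. This transcript fell by 1.35 on the log2 scale (SE 0.18, limma FDR 0.0016). Every CDCA value of this second transcript was under the lowest CON value. Its share of the CHEK1 sum was 18.2% ± 1.3 (SD, n = 3) in CON and 5.75% ± 1.4 (SD, n = 3) in CDCA (p = 0.1 by a two-sided exact permutation test, which cannot go lower with 3 libraries against 3). The ranks 3 and 4 were listed at 0 throughout.

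MDM2 had 10 listed transcripts, of which the most abundant fell. The transcript of rank 1 was listed at 4.33, 3.43 and 2.71 TPM in the CON libraries, compared with 0.86, 1.73 and 1.31 TPM in CDCA (log2 fold change -0.97, SE 0.20, limma FDR 0.0097). The transcript of rank 3 was listed at 0.41, 0.59 and 0.14 TPM in the CON libraries, compared with 1.53, 2.42 and 1.64 TPM in CDCA (log2 fold change 1.05). Rank 1 lay lower and rank 3 higher in every CDCA library than in any CON library. The rank 3 transcript reached the filter of 1 TPM only through its CDCA values, so its values are a description and no test of it is given. The rank 3 transcript held 4.18% ± 2.6 (SD, n = 3) of the MDM2 sum in CON and 32.6% ± 9.5 (SD, n = 3) in CDCA. The transcripts of rank 2 (limma FDR 0.094) and rank 4 were at 0 in CDCA replicate 2 but not in the other libraries.

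**Figure D3:**
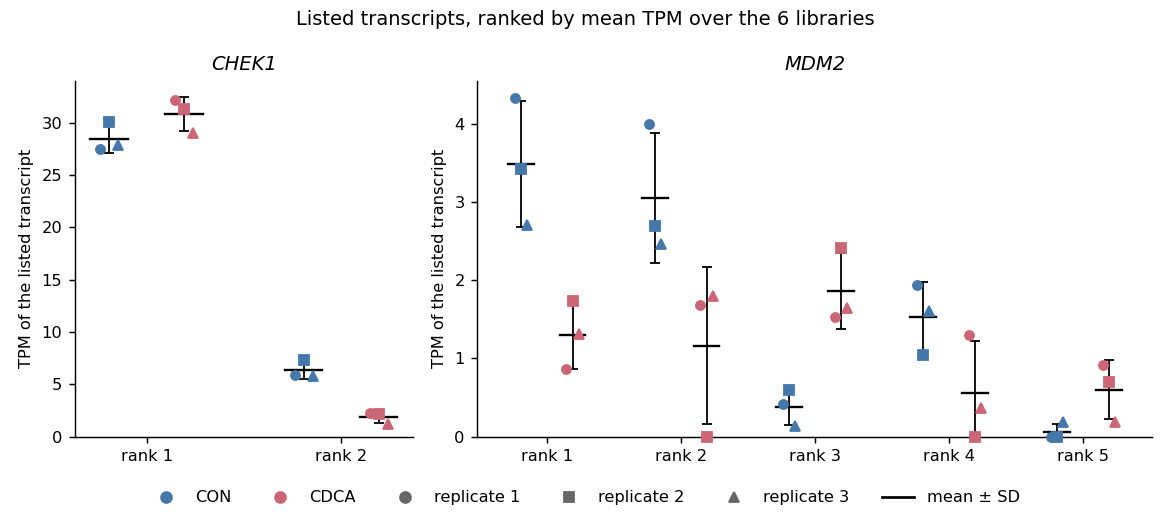
TPM (linear axes from 0) of the listed transcripts of CHEK1 (ranks 1 and 2) and MDM2 (ranks 1 to 5) in each library, CON in blue and CDCA in red, with mean and SD. CHEK1 rank 2 and MDM2 rank 1 are lower in every CDCA library, while MDM2 rank 3 is higher in every CDCA library.

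The other genes with several listed transcripts were CDKN3 and CHEK2. The 3 tested transcripts of CDKN3 had log2 fold changes of -0.26, -0.11 and -0.15, none with an FDR under 0.05 (0.089, 0.32 and 0.42). The transcript of rank 1 held 89.8% to 99.4% of the CHEK2 sum, and its log2 fold change was -0.70 (limma FDR 0.0020). Of the 10 tested transcripts of the 4 genes with several, 2 (MDM2 ranks 3 and 4) lay under 1 TPM in one group and passed the filter through the other. Of the other 8, 3 (37.5%) were lower and 0 higher by the limma FDR. Of all 12205 tested transcripts 41.8% passed it, and of the 10914 with at least 1 TPM in both groups 18.9% were lower and 23.2% higher.

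Ratios of 2 genes within a library do not depend on the total that TPM is scaled to. Of 8 ratios, chosen with earlier results of these data known, 7 could be formed, since CDKN1B was at 0 in 3 libraries. In 5 of the 7 the groups did not overlap, against 61.5% of all single tested genes, and the share over all gene pairs was not computed. Each of these 5 had p = 0.1, the smallest that an exact two-sided permutation test of 3 against 3 can give. Adjusted over the 7 this was 0.14, so none could pass 0.05. The count is therefore a description, and WEE1/PKMYT1 among the 5 has a denominator whose mean lay under 1 TPM in CDCA. CDKN2C was 1.89, 2.12 and 2.03 times as abundant as CDKN2D in the CON libraries and 0.694, 0.598 and 0.919 times in the CDCA libraries. The order of the INK4 inhibitors was therefore turned in every CDCA library, a difference of -1.47 in the log2 ratio. CDKN2C relative to its target CDK4 lay at 0.747, 0.745 and 0.808 in CON and at 0.308, 0.265 and 0.322 in CDCA, lower in every CDCA library than in any CON library.

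CHEK1 was 5.28, 5.80 and 5.85 times as abundant as CHEK2 in CON and 9.53, 9.20 and 9.11 times in CDCA. WEE1 relative to PKMYT1, the other kinase that inhibits CDK1, lay at 1.88, 1.95 and 1.56 in CON and at 5.67, 14.2 and 7.99 in CDCA. PKMYT1 itself was listed at 2.55 ± 0.31 TPM in CON and 0.847 ± 0.30 TPM in CDCA (SD, n = 3). WEE1 relative to CDC25B, a phosphatase that reverses its mark, lay at 0.0388, 0.0456 and 0.0367 in CON and at 0.122, 0.159 and 0.112 in CDCA, a rise of 1.69 in the log2 ratio. Both WEE1 ratios were higher in every CDCA library than in any CON library. The ratios of CDKN1A to MDM2 (p = 0.8 by the same exact test) and of CDKN1A to CDK2 (p = 0.5) overlapped between the groups, and the difference of the first, -0.53 in log2, was 0.52 without CDCA replicate 1.

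**Figure D4:**
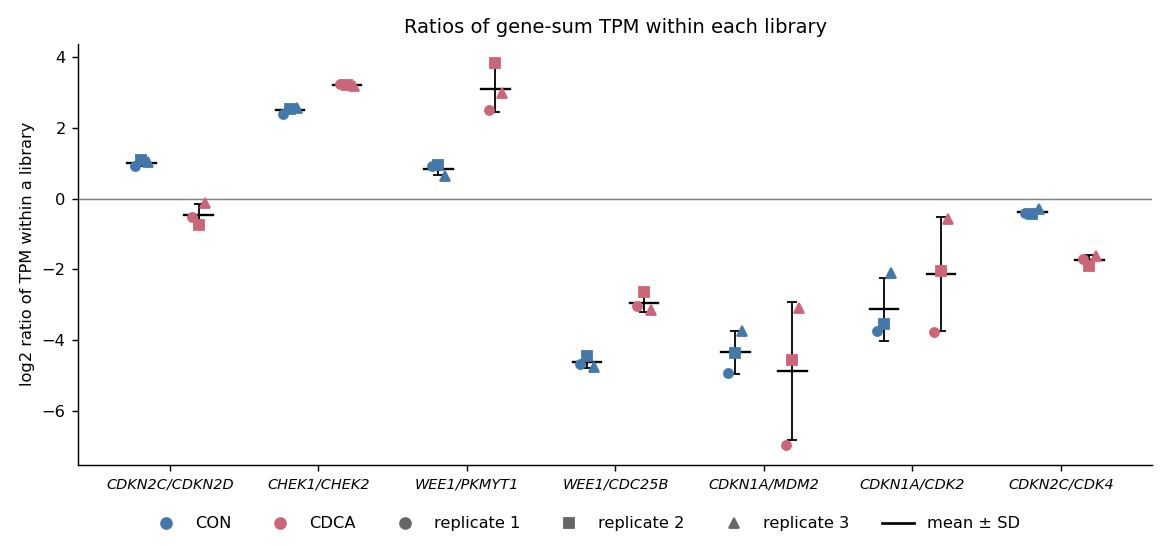
Log2 ratio of the gene-sum TPM of 2 genes within each library (0 means equal TPM), CON in blue and CDCA in red, with mean and SD. CDKN2C/CDKN2D crosses from above 0 in CON to below 0 in CDCA, both WEE1 ratios and CHEK1/CHEK2 rise, and the 2 CDKN1A ratios overlap.

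The other genes of the pathway were taken from lists, which were chosen with earlier results of these data known. A gene under 1 TPM in one group passed the filter only through the group where it was high, so the counts are of genes with at least 1 TPM in both. Of all tested genes 8109 met this, of which 3.18% were called higher and 3.60% lower, 29.4% were higher and 24.1% lower by the FDR, and the median log2 fold change was 0.04. Of the remaining CDK inhibitor genes, CDKN2A and CDKN2B were listed at 0 in all 6 libraries and CDKN1C summed to at most 0.40 TPM in a library, so none was tested. Of 21 genes that sense damage upstream of CHEK1 and CHEK2, 13 were counted. Of these, 2 were called lower, or 15.4% against 3.60% of all genes so counted, and by the FDR 5 were lower (38.5% against 24.1%), 1 was higher (7.69% against 29.4%) and 7 did not pass. The median log2 fold change was -0.02, and over 15 other settings it ran from -0.16 without CDCA replicate 1 to 0.08 without CDCA replicate 2. H2AX, the histone variant marked at DNA breaks, fell from 40.3 ± 5.5 to 13.9 ± 4.1 TPM (SD, n = 3, log2 fold change -1.50, limma FDR 0.0012). RHNO1, which joins the clamp that loads ATR activators, fell from 14.8 ± 0.37 to 5.45 ± 0.38 TPM (log2 fold change -1.30). ATR, the kinase above CHEK1, fell from 3.33 ± 0.38 to 1.61 ± 0.11 TPM (log2 fold change -0.72, limma FDR 0.0014) and was not called.

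Of 16 targets of the checkpoint kinases and of the inhibitors, 8 were counted. By the FDR all 8 were lower, against 24.1% of all genes so counted, and 5 were called lower (62.5% against 3.60%), with a median of -1.24. CDK2, PKMYT1 and the phosphatase CDC25A lay under 1 TPM in CDCA and were not counted. CDK1 had a log2 fold change of -1.62, its partner CCNB1 one of -1.50 (limma FDR 6.3e-06) and PLK1, a mitotic kinase, one of -1.50 (limma FDR 2.9e-05). CDK4 fell from 54.5 ± 4.1 to 31.7 ± 2.4 TPM (SD, n = 3, log2 fold change -0.76). CDC25B, which activates CDK1, fell from 113 ± 6.1 to 54.2 ± 1.5 TPM (log2 fold change -1.04). CDK2 was listed at 4.04 ± 1.5 TPM in CON and 0.867 ± 0.16 TPM in CDCA (SD, n = 3), and PKMYT1 at the values given above.

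Of 14 genes that turn over CDK inhibitors, 10 were counted. One was called lower (10% against 3.60% of all genes so counted), and by the FDR 5 were higher (50% against 29.4%), 2 lower (20% against 24.1%) and 3 did not pass, with a median of 0.17. Over 15 other settings this median ran from -0.05 with the highest listed transcript of each gene to 0.24 without CDCA replicate 1, and it was 0.08 without CDCA replicate 3. SKP2, the F-box protein that marks CDKN1B for degradation, fell from 4.86 ± 0.35 to 2.24 ± 0.18 TPM (SD, n = 3, log2 fold change -0.85, limma FDR 0.00034), while SKP1, its adaptor, rose from 1.72 ± 0.25 to 4.32 ± 0.19 TPM (log2 fold change 0.97, limma FDR 0.00032). CDC20, an activator of the anaphase-promoting complex, fell from 97.2 ± 3.1 to 39.3 ± 1.8 TPM (log2 fold change -1.29).

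Of 9 genes for p53 and its regulators, 8 were counted. By the FDR 5 were higher (62.5% against 29.4% of all genes so counted), 1 lower (12.5% against 24.1%) and 2 did not pass, with a median of 0.32. Over 15 other settings this median ran from 0.20 with totals without mtDNA-encoded mRNAs to 0.44 without CON replicate 1. One, MDM4, was called higher (12.5% against 3.18%), and with totals without mtDNA-encoded mRNAs its log2 fold change of 0.93 (limma FDR 0.00021) was under the limit for a call. MDM4, the partner of MDM2 in holding p53 down, rose from 1.64 ± 0.16 to 4.42 ± 0.12 TPM (SD, n = 3, log2 fold change 1.04, SE 0.09, limma FDR 0.00013), whereas MDM2 fell. RCHY1, another ubiquitin ligase for p53, rose from 15.4 ± 0.73 to 30.2 ± 1.3 TPM (log2 fold change 0.93) and RPL5, a ribosomal protein that can bind MDM2, from 665 ± 38 to 947 ± 15 TPM (log2 fold change 0.51).

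Of 30 target genes of p53, 23 were listed and 17 counted. Of these, 6 were called higher (35.3% against 3.18% of all genes so counted) and 1 lower (5.88% against 3.60%). By the FDR 7 were higher (41.2% against 29.4%), 2 lower (11.8% against 24.1%) and 8 did not pass, and the median was 0.03. Over 15 other settings it ran from -0.05 with totals without mtDNA-encoded mRNAs to 0.19 without CDCA replicate 1, and it was 0.12 without CON replicate 1 and 0.18 without CDCA replicate 3. The largest changes were those of SESN2 (1.77 ± 0.25 to 20.2 ± 0.43 TPM, log2 fold change 2.94), GDF15 (4.61 ± 0.22 to 30.0 ± 1.4 TPM, log2 fold change 2.47) and PMAIP1 (20.1 ± 2.7 to 71.1 ± 2.5 TPM, log2 fold change 1.78). These 3 genes are also known targets of the stress factor ATF4. Of the textbook p53 targets in the set, CDKN1A was not tested and MDM2 was lower.

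**Figure D5:**
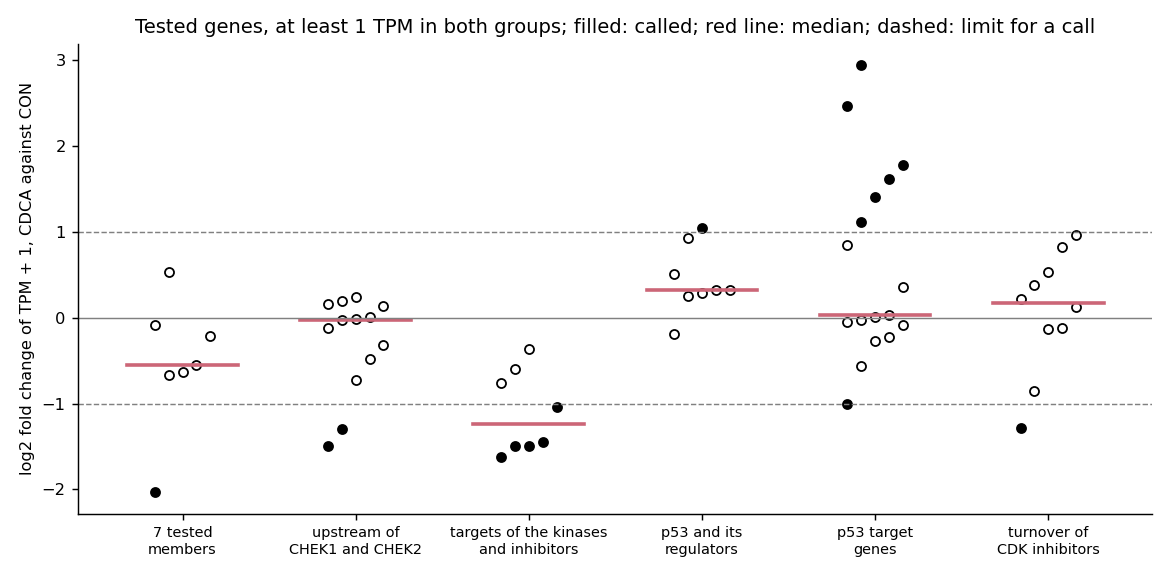
Log2 fold change of TPM + 1 (CDCA against CON) of each tested gene in the set of 9 and in 5 lists of related genes, drawn where both groups had at least 1 TPM; filled points are called, the red line is the median and dashed lines mark 1 in size. The 8 targets of the kinases and inhibitors lie below 0, while p53 target genes spread from -1.01 to 2.94.

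For 6 of the tested genes, the gene with a symbol whose 6 values ran nearest was found by the root mean square difference of log2(TPM + 1), each gene set to its own CON mean. CDKN3 ran nearest to PHB1 (difference 0.030), CHEK1 to HNRNPUL2 (0.034), CDKN2D to SYK (0.054), CDKN2C to PANK2 (0.058), WEE1 to GOLGA7 (0.060) and MDM2 to HNRNPA3 (0.080). PANK2, an enzyme of coenzyme A synthesis, lay at 6.80, 6.18 and 6.33 TPM in the CON libraries, compared with 0.66, 0.77 and 0.85 TPM in CDCA. With 6 libraries and 8708 genes, a near match of this kind is a description of these libraries.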

How the data were processed

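Per the paper's methods, RNA libraries were sequenced on an Illumina instrument, and RSEM gave the TPM that the authors deposited for 63041 transcripts. The submitters' processing notes name Bowtie 0.12.2 and a mouse genome build, although all IDs are pig IDs; the annotation release is not given in the sources used here, so no coordinates are printed. The authors used edgeR, which needs counts, so limma took its place.

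Members were matched by the deposited gene name, and other genes by a table of IDs and symbols, then by the deposited name (17501 IDs with a symbol). Rows that share a gene ID were taken as its listed transcripts, and their TPM were summed per ID. The 8708 genes averaging 1 TPM or more were fitted in R 4.3.3 with limma 3.58.1 (lmFit, eBayes with a trend) on log2(TPM + 1), with Benjamini-Hochberg adjustment. The calling rule was tried on simulated data with planted changes larger than those of every tested member but CDKN2C. Smaller changes were not covered by it. The members, lists, ratios and alternatives were chosen with earlier results of these data known. Genes named were the members, ratio partners, the 3 largest changes of each list with an FDR under 0.05, and the nearest gene of each tested member (1 of these is not reported here); PCNA, CDC25A, the cell type markers and the CDKN2A, CDKN2B and CDKN1C values were given as well, PCNA and CDC25A being picked after their values were seen. No protein or promoter sequences were used here.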

Additional observations from a re-analysis of the deposited data

How the results depend on the processing

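CDKN2C was called lower under all 14 other settings (log2 fold change -2.18 to -2.01). Of 98 values of the 7 tested members under these settings, 84 kept their direction and their side of an FDR of 0.05, 12 lost it (9 of CDKN3 and 3 of MDM2), 1 gained it and 1 turned: CHEK1 was at 0.11 with its highest listed transcript. Fitted alone after the data were seen, CHEK1 rank 1 was at 0.11, against the direction of its sum. MDM2 rank 3 was at 1.05, also against its sum, but it reached 1 TPM only through CDCA, so this value is a description. The number of members lower by the FDR was 3 with no filter on low values and 3 to 5 with each library left out. No member was higher by the FDR (0) without CON replicate 3 and CDCA replicate 2 together, also added later. Genes called higher were 306 as reported, 509 with a pseudocount of 0.1 TPM and 523 with the listed TPM rescaled to 1000000; with totals without the 13 mtDNA-encoded mRNAs, 221 were called higher and 449 lower, against 306 and 340, and 0 p53 regulators were called (MDM4 at 0.93). Of the genes that turn over CDK inhibitors, 4 were called with the smaller pseudocount, 3 after rescaling, and 1 to 2 with each library left out. The log2 CHEK1/CHEK2 difference was 0.97 with the highest transcript in place of 0.72, and that of CDKN1A/MDM2 ran from -1.42 to 0.52 with each library left out. The causes of these changes were not tested.

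Replicate numbers did not pair the libraries (correlation of deviations -0.04, -0.09 and -0.05 for same-numbered libraries); with the replicate number as a block, 309 genes were called higher and 343 lower, and CDKN3 had a log2 fold change of -0.22 (limma FDR 0.10). Without read counts per gene no counting error could be set, and CDKN1A and CDKN1B stayed too low to compare.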
